A study of Arabidopsis thaliana with 4 samples.

Results

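Arabidopsis loci that carry only a locus code, and no gene symbol of their own, were examined where their transcripts stood higher in inflorescences of the mutant pistillata than in wild-type inflorescences on every array of the study. A locus was taken when the gene table gave its locus code as its symbol, a probe listed that locus alone, and the mean of such probes was a log2 ratio of 0.5 or higher on each of 4 arrays. AT4G00910, AT4G00920, AT1G72290, AT3G12000 and AT1G12790 were left out by name; 4 of these 5 met the threshold, and AT1G12790 did not, at 0.28 on average. This gave 84 loci among 4829 unnamed genes measured and 5386 genes measured in all. The loci were thus chosen by their 4 ratios, whose height is a description and carries no test.

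Each array set total RNA of pistillata inflorescences directly against total RNA of wild-type inflorescences, and every value is log2 of pistillata over wild type. The sources used here give neither the pistillata allele nor the strain and age of the plants. The labels put pistillata RNA in channel 1 for arrays 1 and 3, and in channel 2 for the other pair. The signs in the table do not follow that order, and arrays 1 and 4 were multiplied by -1 as part of the rule. With these signs 3 anther genes and a pollen gene, named below, were low on every array. The direction is thus assumed from these genes, and the labels do not settle it. Every sign given here would turn if all 4 arrays were reversed. Signs that follow the channels in the labels do not give such a reversal, since the arrays then disagree and 0 loci meet the threshold. Whether each array had its own plants is not stated, so the spread between arrays may be technical.

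PISTILLATA is a MADS-box transcription factor that acts with APETALA3 to specify petals and stamens. Without it, sepals form in place of petals and carpel tissue in place of stamens. A whole inflorescence of the mutant therefore holds a different mix of organs, and in such bulk RNA more cells of a type and more RNA per cell cannot be told apart. Loci without a symbol are mostly genes whose role has not been worked out, although the family of the encoded protein is often known from its sequence. The families named below are general background on these loci and do not come from the deposited table.

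Few marker genes of single organs had a probe of their own, 3 of 13 for the anther and 1 of 7 for pollen. The anther genes SWEET8, SHT and ATA20 stood at -3.71, -3.66 and -2.96, and the pollen tubulin TUA1 at -0.47. The arrays were turned in the way that makes these 4 low on every array, so nothing is read from their direction. INO, a transcription factor of the outer ovule integument and the only 1 of 14 carpel and ovule markers measured, averaged -0.20 ± 0.18 (SD, n = 4). SBPASE, a Calvin cycle enzyme and the only 1 of 8 green tissue markers measured, averaged 0.54 ± 0.33 (SD, n = 4). It had 0.64, 0.59, 0.85 and 0.07 on arrays 1 to 4, so array 4 was near 0. The part of organ composition in the ratios of the 84 loci was not tested.

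The median of the 84 loci, each averaged over 4 arrays, was a log2 ratio of 0.94, and the median of all 5386 genes was 0.16. In all, 30 loci averaged 1 or more, a 2-fold difference, and 10 reached 1 on every array. By limma, 71 of the 84 had an adjusted p under 0.05 and a positive sign, where 2.75% of all genes measured did. Since the fit rests on the ratios that chose the loci, nothing is read from that count. Among genes with a symbol, 7 of 530 (1.32%) met the same threshold, and among unnamed genes apart from those left out, 84 of 4824 (1.74%) did. In the opposite direction, 275 of those unnamed genes were at -0.5 or lower on all 4 arrays. With each array centred on the median of its gene probes, 48 of the 84 still met the threshold, and the means shifted by a median of -0.11 over all genes.

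**Figure D1:**
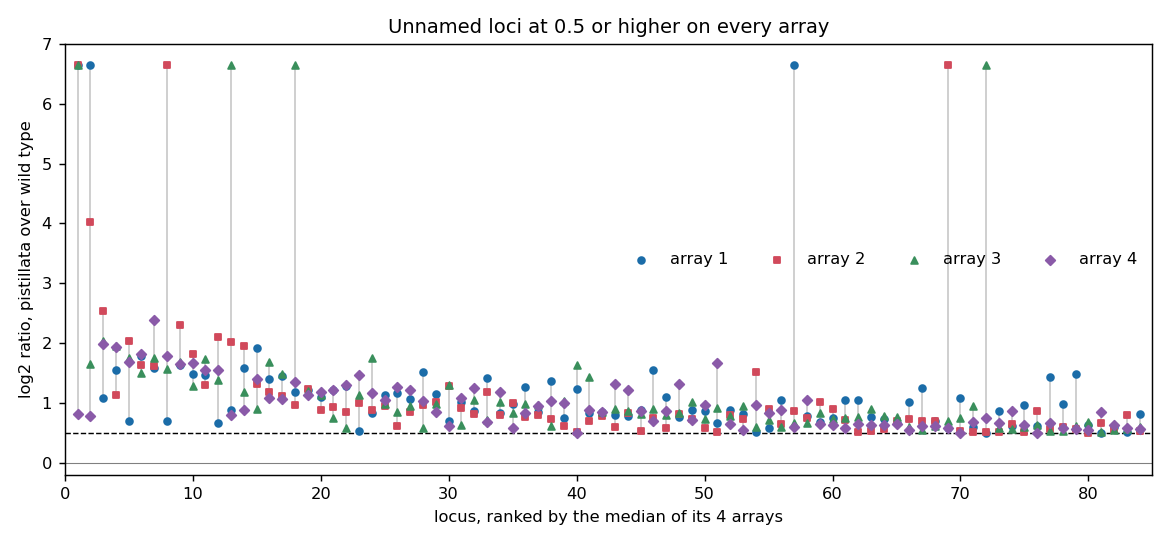
Log2 ratio of pistillata over wild type (vertical axis) of the 84 loci, ranked along the horizontal axis by the median of their 4 arrays; symbols are single arrays, grey lines join the lowest and highest, and the dashed line is the threshold of 0.5. Most loci lie between 0.5 and 2, and 8 have at least 1 value at 6.64, where the table stops.

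The loci with a ratio of 1 or more on every array came from unrelated families. AT4G11290, of the class III peroxidases, which act on cell wall polymers and other phenolics in the presence of hydrogen peroxide, had log2 ratios of 1.79, 1.64, 1.502 and 1.82 on arrays 1 to 4. It was the only locus with more than 1 probe, and its 2 probes averaged 1.20 and 2.18, so the size of its ratio differed with the probe. AT5G45910, of the GDSL lipases, had 1.09, 2.54, 2.03 and 1.99, with array 1 well below the others. AT5G22960, of the serine carboxypeptidase-like family, had 1.47, 1.29, 1.74 and 1.56, a mean of 1.52 ± 0.19 (SD, n = 4) or 2.86-fold.

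AT5G38900, related to the DsbA thioredoxins that form or break disulphide bonds, had 1.59, 1.62, 1.75 and 2.38. AT5G57500, of a galactosyltransferase family that adds sugars to glycoproteins, had 1.56, 1.13, 1.95 and 1.93, or 3.13-fold on average. Array 4 was the highest for AT5G38900 and array 2 the lowest for AT5G57500. The transcription factor genes AT1G12890, of the AP2/ERF family, and AT2G40200, of the bHLH family, were lower. AT1G12890 was steady, with 1.21, 1.24, 1.20 and 1.14, an SD of 0.04 around a mean of 1.20. AT2G40200 had 1.46, 1.12, 1.49 and 1.06, an SD of 0.22, near the median SD of 0.21 over all 84 loci.

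The other 3 loci of this kind, AT5G53710, AT5G44690 and AT5G06790, are given no family here. AT5G53710 had 1.64, 2.31, 1.68 and 1.65, so array 2 stood apart. AT5G44690 had 1.48, 1.81, 1.29 and 1.67, and AT5G06790 had 1.40, 1.19, 1.69 and 1.09. In AT5G44690 and AT5G06790 the 4 arrays lay within 0.53 and 0.60 of each other.

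The highest averages came from another kind of locus, with a value at the cap of the table. A ratio of 100 in either direction is the largest the table holds, so 6.64 on the log2 scale is only a bound. In all, 10 values of 8 loci lay there, and arrays 1 to 4 had 3, 3, 4 and 0 of them. AT3G62780, with a C2 domain of the kind that binds phospholipids, had 6.64 on arrays 1, 2 and 3 and 0.81 on array 4. AT3G58550, of the lipid transfer proteins, small secreted carriers of lipids, had 6.64, 4.02, 1.66 and 0.79. These loci had the highest means, but each ranged over most of the scale.

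Single capped values raised the means of the 6 others. AT4G20800, of the berberine bridge enzyme-like family of flavin oxidases, had 0.70, 6.64, 1.56 and 1.79, and AT3G44970, a cytochrome P450, had 1.19, 0.97, 6.64 and 1.35. AT2G02630, with the cysteine- and histidine-rich C1 domain, had 0.89, 2.02, 6.64 and 0.80. AT1G68430, AT1G62060 and AT2G26370 each had 1 value at 6.64, on arrays 1, 2 and 3 in that order, and no other value above 0.86. The median of 4 arrays was 0.76 for AT1G68430, 0.65 for AT1G62060 and 0.63 for AT2G26370, against means of 2.19, 2.13 and 2.10.

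Empty spots, which hold no gene probe, reached the same upper cap after turning in 5.25%, 48.6%, 70.6% and 0% of their values for arrays 1 to 4. At the lower cap after turning were 9.67%, 0%, 0.239% and 57.2% of the empty values. Array 4 was multiplied by -1, so as deposited its 57.2% lay at the upper cap, the same end as on arrays 2 and 3. Gene probes were at the upper cap in 0.395%, 2.60%, 2.87% and 0.0492%. The share at the upper cap was thus highest on arrays 2 and 3 for both kinds of spot, and the part of empty-spot behaviour in the capped loci was not tested. Without capped probes the other 76 loci had a median of 0.90 and a largest SD of 0.60.

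Families could be given to 57 of the 84 loci, and none dominated. Products of the cell wall and of secretion were 8. Besides the peroxidase, the lipase, the carboxypeptidase-like protein and the lipid transfer protein, they held AT1G67750, a pectate lyase that cuts pectin, with 1.54, 0.75, 0.91 and 0.69 and a mean of 0.97 ± 0.39 (SD, n = 4). Array 1 was the highest for it. AT5G35735, with a DOMON domain and a cytochrome b561, averaged 0.90 and AT1G53070, a legume lectin that binds sugars, 0.85. AT4G37810, of the EPF-like family of secreted signalling peptides, averaged 0.79 and had 0.68, 1.01, 0.83 and 0.65. The median of the 8 means was 1.24, and 7 of the 8 met the threshold after centring.

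Protein kinases, which relay signals by phosphorylation, were 7, and their means lay close together, between 0.66 and 1.01. Leucine-rich repeats, a receptor domain outside the cell, are found in 2 of them, AT5G59660 at 1.01 ± 0.35 and AT1G56120 at 0.97 ± 0.56 (SD, n = 4 each). AT1G56120 had 1.24, 0.51, 1.63 and 0.51, so arrays 2 and 4 were just above the threshold. Receptor kinases with an S-locus lectin domain were AT4G11900, at 0.997 ± 0.194, and AT1G61430, at 0.66 ± 0.05 (SD, n = 4 each). AT3G25490, AT1G51620 and AT3G57760 averaged 0.998, 0.996 and 0.68. After centring, 4 of the 7 met the threshold.

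Genes of the resistance type, whose products detect pathogens inside the cell or share their repeats, were 3, with means between 0.69 and 0.78. AT5G47250, with an NB-ARC domain and leucine-rich repeats, averaged 0.78, AT4G16880, with leucine-rich repeats, 0.71, and AT3G04210, with a TIR and a nucleotide-binding domain, 0.69. Only 1 of these 3 met the threshold after centring. Among calcium proteins, AT1G21550 and AT2G41090 belong to the EF-hand family, which binds calcium ions, and averaged 1.38 and 0.96. AT5G53010, a putative calcium-transporting ATPase, averaged 0.63.

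Of transcription factors, AT4G00870 joined the pair given above. It is a bHLH gene with 1.52, 0.97, 0.59 and 1.03, and it lies 9 genes from AT4G00910, one of the loci left out. Genes tied to protein turnover were 5, all with means below 1. The F-box genes AT3G17400 and AT1G58310, whose family selects targets for ubiquitin ligases, averaged 0.93 and 0.90. The ubiquitin domain gene AT1G16960 averaged 0.68, the NPH3 family gene AT5G48800 0.68 and the SINA-like gene AT1G66610 0.63. Of these 5, 1 met the threshold after centring.

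The C1 domain, a zinc-binding fold, was shared by 3 loci, AT2G02630 described above, AT2G19650 and AT5G44770. AT2G19650 had 1.099, 0.88, 1.13 and 1.18, and AT5G44770 had 0.85, 0.80, 0.97 and 0.95. Both were even across the arrays, unlike AT2G02630, and all 3 met the threshold after centring.

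Enzymes and a transporter made up 11 loci with a median mean of 0.92. AT4G36770, a UDP-glycosyltransferase that joins sugars to small molecules, averaged 0.94, but its 4 values ran between 0.51 on array 2 and 1.67 on array 4. AT3G29010, of the biotin and lipoate ligases, averaged 0.92, AT3G49160, a pyruvate kinase of glycolysis, 0.85 and the methyltransferase AT2G43200 0.79. AT5G63290, of the radical SAM enzymes, AT1G25530, an amino acid transporter, and AT2G21550, a dihydrofolate reductase-thymidylate synthase, averaged 0.68, 0.62 and 0.59. AT2G21550 was the locus nearest the threshold, with 0.50 on array 2.

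Loci tied to RNA, DNA or protein synthesis were 8. AT5G53720, with an RRM domain that binds RNA, averaged 1.55 ± 0.58 (SD, n = 4) and had 0.70, 2.04, 1.75 and 1.69, so array 1 was far below the others. AT1G67760, of the TCP-1/cpn60 chaperonins that fold proteins, had 1.07, 0.85, 0.95 and 1.22. AT2G02550, with a PIN domain found in nucleases, averaged 0.98, and the pentatricopeptide repeat genes AT1G31840 and AT3G05340, of a family that acts on RNA in organelles, 0.81 and 0.72. AT4G17760, related to the DNA damage checkpoint clamp, averaged 0.80, the ribosomal protein gene AT1G12960 0.76 and the GTP-binding AT5G58370 0.59. AT5G58370 had the lowest mean of all 84 and an SD of 0.04, with 0.60, 0.55, 0.56 and 0.63.

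Of other domains, the DUF1262 gene AT1G13470 averaged 1.16 and the remorin gene AT1G53860, of a family of plasma membrane proteins, 1.03. The DUF584 gene AT4G21930, the DUF581 gene AT5G49120 and the plant mobile domain gene AT4G16050 averaged 0.98, 0.84 and 0.77.

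**Figure D2:**
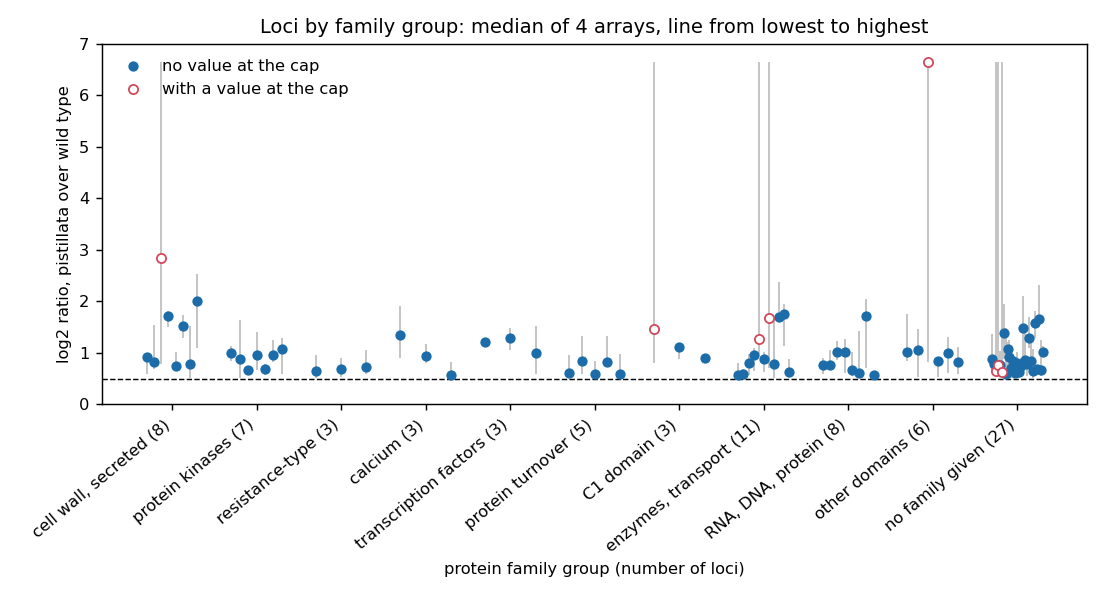
Log2 ratio of pistillata over wild type (vertical axis) of the 84 loci, by protein family group (horizontal axis, with the number of loci); points are medians of 4 arrays, lines run between the lowest and highest array, and open points have a value at 6.64. No group stands apart by its points, and the long lines belong to the 8 capped loci.

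The 27 loci with no family given had a median mean of 0.92, close to the 0.94 of the 57 placed loci. AT4G18540 averaged 1.43 and AT2G28570 1.40, with arrays between 0.66 and 2.10 for AT4G18540 and between 0.87 and 1.95 for AT2G28570. AT5G59360, AT3G05110, AT4G24700, AT3G25130, AT1G06420 and AT5G11360 averaged 1.03, 1.03, 0.96, 0.96, 0.94 and 0.92. AT4G01670, AT3G48640, AT2G38160, AT1G68945, AT5G55430, AT1G60060 and AT5G04000 averaged between 0.76 and 0.84. AT4G16180, AT3G48480, AT5G12930, AT5G51800, AT4G04190 and AT3G57440 averaged between 0.65 and 0.75. AT3G48640 was the most even of all 84, with 0.85, 0.79, 0.85 and 0.84 and an SD of 0.03.

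At the threshold, the loci just inside were AT2G21550, AT5G12930, AT1G66610 and AT3G57440, whose lowest arrays were 0.503, 0.503, 0.503 and 0.506. Just outside were AT5G22875, AT1G31490, AT3G49710 and AT1G44830, at 0.4996, 0.4989, 0.4982 and 0.4958. The 4 inside averaged 0.59, 0.72, 0.63 and 0.65, and the 4 outside 0.78, 0.71, 0.84 and 0.91. All but AT1G31490 of the loci outside thus averaged more than each of those inside. A threshold of 0.25 took 401 loci.

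The rule uses all 4 arrays, so an array left out of the choice gives a reading that the choice did not use. Whether the arrays held separate plants is not stated, so this reading may only repeat the same RNA and is no test of the loci. The 84 in each count below are the same loci. Of unnamed genes at 0.5 or higher on arrays 2, 3 and 4, 84 of 135 (62.2%) were also at 0.5 or higher on array 1, where 25.8% of all unnamed genes were. The corresponding counts were 84 of 136 (61.8%, against 17.8%) on array 2, 84 of 142 (59.2%, against 17.0%) on array 3 and 84 of 170 (49.4%, against 16.3%) on array 4. Of the genes chosen without an array, 24, 8, 11 and 38 were below 0 on arrays 1, 2, 3 and 4. On the array left aside their medians were 0.70, 0.57, 0.60 and 0.50 for arrays 1 to 4, where all genes had medians between 0.10 and 0.15.

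**Figure D3:**
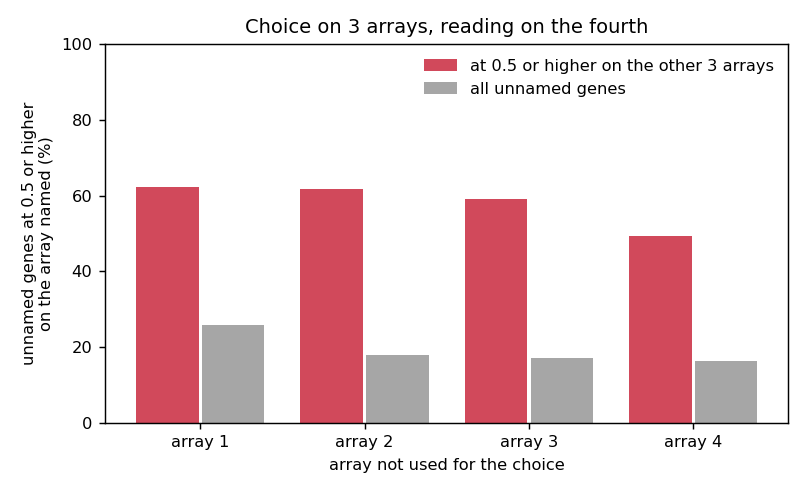
Percent of unnamed genes at a log2 ratio of 0.5 or higher (vertical axis) on each array (horizontal axis); red bars are genes at 0.5 or higher on the other 3 arrays, grey bars all unnamed genes. The red bars lie between 49.4% and 62.2% and the grey ones between 16.3% and 25.8%.

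Another reading that the rule did not use came from probes that list one of the 84 loci together with other genes. Such a probe names no single gene, so its ratio belongs to all the genes it lists. It was read on the same arrays and RNA that chose the loci, so it is no separate test of them. There were 48, and 47 of them, for 43 loci, had values on all 4 arrays. Their median log2 ratio was 0.39, against 0.12 for all 7405 probes that list several genes, and 40 of 47 (85.1%) were above 0, against 63.0%. By limma, 6 were called higher and 3 lower, with the p-values adjusted over all 26156 gene probes. That is 12.8% higher and 6.38% lower, where 3.12% and 8.28% of probes listing several genes, and 2.98% and 7.23% of all gene probes, were called higher and lower. With no adjustment, 21 of the 47 (44.7%) had a p under 0.05 and a positive sign, where 18.2% of probes listing several genes did.

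The highest of these was the probe that lists AT5G11360 with AT5G11410 and AT5G11400. It had 2.28, 2.04, 1.90 and 2.25 on arrays 1 to 4, a mean of 2.12 ± 0.18 (SD, n = 4) or 4.34-fold, with a limma adjusted p of 0.0014. The probe of AT5G11360 alone averaged 0.92, less than the shared one. The probe that lists the pectate lyase gene AT1G67750 with AT5G63180, AT4G24780 and AT3G27400 averaged 0.97 ± 0.20 (SD, n = 4; limma adjusted p = 0.0121), as did the probe of AT1G67750 alone.

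The shared probe of the remorin gene AT1G53860 averaged 0.77, that of the F-box gene AT1G58310 0.70, that of the SINA-like gene AT1G66610 0.69 and that of the receptor kinase gene AT5G59660 0.68 (limma adjusted p = 0.0116, 0.0168, 0.0445 and 0.0414). Each was positive on all 4 arrays. These 4 calls were lost, at limma adjusted p between 0.0506 and 0.151, without array 2, 3 or 4, and 3 of them without array 1. Those for AT1G66610 and AT5G59660 were also lost after centring (limma adjusted p = 0.079 and 0.0721). The AT5G11360 call kept an adjusted p of 0.0147 or less by limma without any 1 array, and the AT1G67750 call was lost without array 1, 2 or 3 (adjusted p = 0.0584, 0.0656 and 0.0527 by limma).

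The 3 shared probes called lower ran against the locus they list. The probe that lists AT5G44690 with AT4G20160 had -2.97, -3.11, -2.14 and -2.98, a mean of -2.80 ± 0.45 (SD, n = 4; limma adjusted p = 0.00272), where the probe of AT5G44690 alone averaged 1.56. The probe that lists the EF-hand gene AT1G21550 with CML42 and CML43, calmodulin-like calcium sensors, had -2.23, -2.08, -1.45 and -2.95 (limma adjusted p = 0.011), where AT1G21550 alone averaged 1.38. One of a pair of probes that list AT5G35735 with AT5G47530 and AT4G17280 averaged -2.26 ± 0.58 (SD, n = 4; limma adjusted p = 0.00848). The second of that pair averaged -0.59 (limma adjusted p = 0.147), and AT5G35735 alone 0.90. For each of these 3 loci the shared probe called lower and the locus's own probe thus had opposite signs on all 4 arrays. With arrays 1 and 2 and arrays 3 and 4 averaged first, the call for AT5G35735's shared probe was lost (limma adjusted p = 0.0951), as were the higher calls other than that of AT5G11360 (between 0.0821 and 0.131). The call for AT1G21550's shared probe was lost without array 1 or 2 (limma adjusted p = 0.0685 and 0.0526).

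For 2 loci the shared probe varied too widely to be read. The probe that lists AT2G19650 with 3 other genes had 0.38, 2.72, 6.64 and -6.64, and that of AT3G04210 with 4 other genes had -0.80, 6.64, -0.03 and 0.57. The capped AT3G62780 had a shared probe, which also lists SRC2, at -0.02 ± 0.32 (SD, n = 4; limma adjusted p = 0.944).

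**Figure D4:**
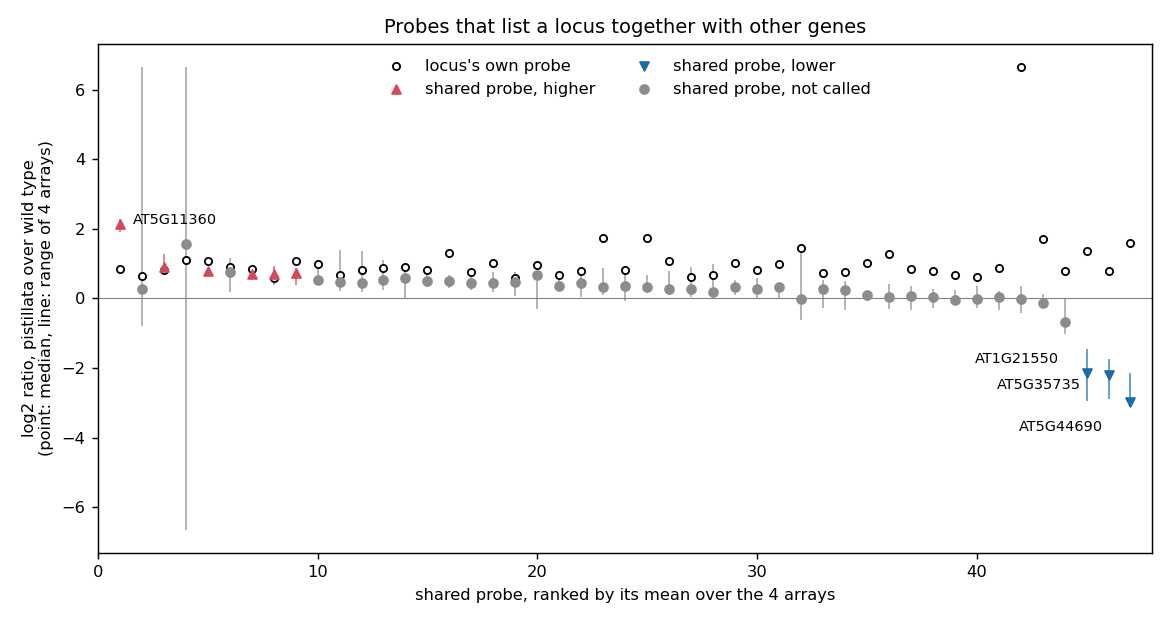
Log2 ratio of pistillata over wild type (vertical axis) of 47 probes that list 1 of the loci together with other genes, ranked by mean (horizontal axis), with lines for the range of 4 arrays; open circles are the medians of the locus's own probe. Most shared probes lie between 0 and the locus's own value, and the 3 called lower average between -2.18 and -2.80.

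Genes that share a probe with one of the 84 loci and also have a probe of their own were 11, all without a symbol. Being unnamed and not chosen, each had missed the threshold on at least 1 array, so few could be high. Their median was 0.37, and by limma 0 were called higher and 1 lower. Over all genes 2.75% were called higher and 5.79% lower. An unadjusted p under 0.05 with a positive sign was found for 3 of the 11 (27.3%), where 20.3% of all genes had one. The gene called lower was AT1G54540, listed with AT4G01670, at -1.35 ± 0.47 (SD, n = 4; limma adjusted p = 0.025), and without any 1 array its adjusted p by limma was between 0.0634 and 0.104, and with the pairs of arrays averaged it was 0.142. AT1G53060, a gene next to the lectin gene AT1G53070 and listed with it, had 1.099, 0.96, 0.87 and -0.04, so array 4 alone kept it out.

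The loci were spread over the genome. Chromosomes 1 to 5 held 21, 10, 15, 15 and 23 of them, which is between 1.42% and 2.12% of the unnamed genes measured on each. Immediate neighbours among the 84 were AT5G53710 with AT5G53720 and AT1G67750 with AT1G67760. AT5G53710 and the RRM gene AT5G53720 both had their highest value on array 2, and AT5G53730, next to AT5G53720, had 0.98, 0.68, 0.21 and 0.81 and was not called (limma adjusted p = 0.0704). AT5G53700 and AT5G53740, on either side of these 3 genes, averaged 0.06 and -0.01, and AT5G53700 was at -0.056 after centring.

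Within 2 protein-coding genes on either side of a locus, 70 other genes were measured, beside 49 of the loci. Their median was 0.19, close to the 0.16 of all genes. By limma, 3 were called higher and 4 lower (4.29% and 5.71%), where 2.75% and 5.79% of all genes were. Most of these neighbours are unnamed and could be high only on some arrays, since they would otherwise have been chosen. Just 2 neighbours had a symbol, ATGSTF13, 2 genes from AT3G62780, at -0.27 and PSBY, next to AT1G67750, at 0.11 (-0.0016 after centring), and 0 of the 2 were called by limma or had an unadjusted p under 0.05.

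The neighbours called lower were 4 of 70 (5.71%), near the 5.79% of all genes, so no trait of the loci is read from them. AT5G49130, next to the DUF581 gene AT5G49120, had -1.80, -2.19, -2.35 and -2.08 (limma adjusted p = 0.00239), where AT5G49120 averaged 0.84. AT1G16950, next to AT1G16960, had -1.81, -1.45, -2.26 and -1.94 (limma adjusted p = 0.00506). AT2G43220, 2 genes from the methyltransferase gene AT2G43200, averaged -1.64 ± 0.18 (SD, n = 4), and AT2G19630, 2 genes from AT2G19650, -0.9997 ± 0.2325 (SD, n = 4; limma adjusted p = 0.00298 and 0.0154). Without array 2, 3 or 4 the AT2G19630 call was lost (limma adjusted p = 0.0746, 0.0634 and 0.0734), and the other 3 calls held without any 1 array. With arrays 1 and 2 and arrays 3 and 4 averaged first, the AT1G16950 and AT2G19630 calls were lost (limma adjusted p = 0.0594 and 0.111). These 4 were below 0 on every array and the loci are at 0.5 or higher by rule, so no overlap between them was possible. The neighbours called higher were AT4G24710, AT3G05080 and AT2G41080, at 0.55, 0.54 and 0.53 (limma adjusted p = 0.0396, 0.0311 and 0.0498). These 3 calls were lost by limma without any 1 of the 4 arrays, with adjusted p between 0.079 and 0.177, and after centring, with adjusted p between 0.0638 and 0.1, and with the pairs averaged, with adjusted p between 0.163 and 0.181.

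**Figure D5:**
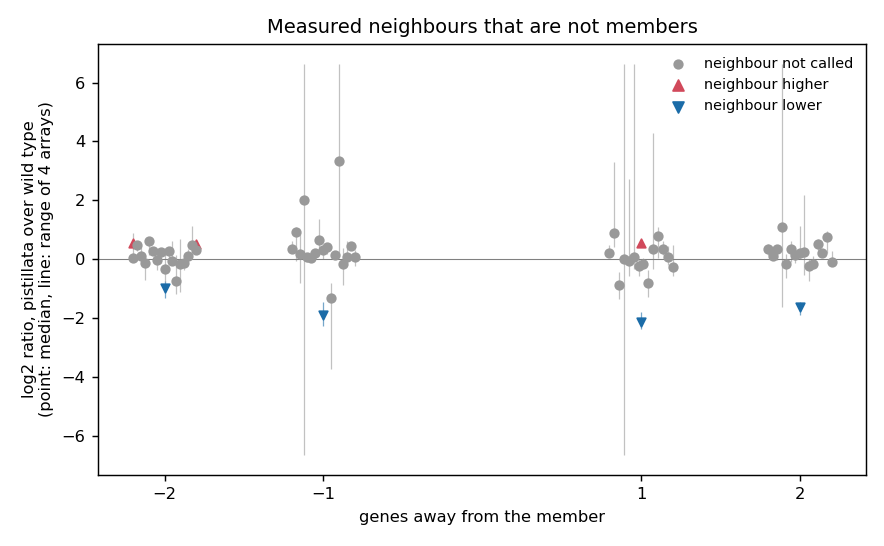
Log2 ratio of pistillata over wild type (vertical axis) of the 70 measured genes within 2 genes of a locus, by their distance in genes (horizontal axis); points are medians and lines the range of 4 arrays, and triangles are genes called by limma. The 4 called lower average between -0.9997 and -2.11 and the 3 called higher between 0.53 and 0.55.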

How the data were processed

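The 4 arrays form 1 group, pistillata over wild type. The authors deposited log2 ratios, 1 column for each array. The labels refer to an earlier paper for the normalization, and neither it nor the numerator is described in the sources used here. The log2 scale was read from the largest values, which equal a ratio of 100. Before turning, main-set gene probes had medians of -0.12, 0.14, 0.11 and -0.08, so the centring is unknown. Signals were not used here, and the number of arrays limits the precision.

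Of 26933 spots, 459 empty or control spots were left out. Probes were named from the platform annotation, in which 5784 list 1 gene and 7497 several. Of 5443 genes with a probe of their own, 5415 matched the gene table (TAIR10.1), which served for names and the order of protein-coding genes. Gene values are means over such probes with values on all 4 arrays. Calls used limma 3.58.1 in R 4.3.3 (intercept, eBayes, two-sided, Benjamini-Hochberg over all genes or all gene probes, threshold 0.05). The fit was tested on simulated data whose unchanged genes lay around 0, where all genes measured here had a median of 0.16. That test cannot show how many higher calls come from this shift. Loci, families and lists were chosen with earlier results of these data known. A planned match of relatives by protein sequence was not run, as no protein sequences were used here, and genes listed on the same probe took its place. By rule, values on each array were given for the 12 highest means, for loci at 1 or more on every array or with probes that differ and for adjacent loci, and the lowest value for those at the threshold; the other loci were named by family with their mean. More loci were given all 4 values once those values were known. Alternatives tried were centring, leaving out an array or capped probes, averaging pairs of arrays, array weights, other thresholds and the sign of the arrays.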

Additional observations from a re-analysis of the deposited data

Results flagged for a closer look

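A value far from its 3 others, by a gap over most of the range of the 4 arrays, was found for 12 of the 84 loci. The same held for 3 of the 47 shared probes. For values neither chosen by a threshold nor capped, chance gives about 1 in 20. The loci were chosen by a threshold and 8 hold a capped value, so their count cannot be set against that rate. The value that stood apart was a capped one for AT3G44970 (array 3), AT1G68430 (array 1), AT1G62060 (array 2) and AT2G26370 (array 3), each at 6.64, while AT3G62780 had 0.81 on array 4 beside 3 capped values. Among loci with no capped value, AT5G53710 and AT3G48640 stood apart on array 2, at 2.31 and 0.79. AT3G17400 and AT5G11360 did so on array 4, at 1.32 and 1.22, and AT2G38160, AT4G17760 and AT5G48800 on array 1, at 1.49, 1.43 and 0.98. Of the shared probes, that of AT4G21930 stood apart at 1.09 on array 1, that of AT4G11900 at -0.31 on array 3 and that of AT5G44690 at -2.14 on array 3.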

How the results depend on the processing

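The number of loci, 84 as reported, was 48 with each array centred on its median, 401 at a threshold of 0.25, 10 at a threshold of 1 and 0 where signs followed the channels in the labels; leaving out each array in turn gave 135 to 170, since fewer arrays had to pass. Their median log2 ratio, 0.94, was 0.60 at 0.25 and 1.60 at 1, and 0.86 to 0.95 without an array. The count of shared probes called by limma, 9, was 3 to 5 without an array, 3 with arrays 1 and 2 and arrays 3 and 4 averaged first, and 15 with array weights. It was 7 after centring and 13 without capped probes. Genes sharing a probe that were called, 1 lower as reported, were 0 to 1 without an array, the 1 without array 4 being higher. With the pairs averaged 1 was called, again higher. Without capped probes 2 were called lower, and with array weights 2 were called higher and 2 lower. Neighbours called lower, 4, were 2 with the pairs averaged and 3 to 4 without an array. They were 5 after centring, 6 without capped probes and 5 with array weights. Neighbours called higher, 3, were 0 after centring or with the pairs averaged, and 0 to 1 without an array. Without capped probes they were 6, and with array weights 7. Neighbours with a symbol stayed at 0 called by limma under every alternative run. The causes were not tested, apart from the fewer arrays. The 9 shared probes called and the 8 other genes called kept their direction under centring, without an array and without capped probes. These 17 also kept it with pairs averaged and with array weights. The 84 means stayed above 0 under centring, without an array and without capped probes, but the rule left no other outcome. Each of their values had to meet the threshold, which exceeds the shift on centring, so nothing is read from their direction. Under the labels' channels single values were not recomputed, and means near 0 of genes not called can change sign on centring, as those of AT5G53700 and PSBY did. Of the 84 means, 10 moved by more than their SD after centring and 0 did without an array or without capped probes (76 loci left). The match of relatives by protein sequence, with its identity limits, was not run. Alternatives for genes that share a probe and for unnamed neighbours were chosen after seeing the data. Each ratio already sets pistillata against wild type within 1 array, so no separate paired analysis was run.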
